A study of Mus musculus with 6 samples.

Results

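Apoa4, Apoc3, Apoc2 and Apob encode apolipoproteins carried on chylomicrons, and they are 4 of the 1386 genes for which values were deposited. They were taken by gene name from a table that compares the intestinal epithelium of mice given Akkermansia muciniphila (Akk, a gut bacterium that feeds on mucus) with that of PBS controls. Wild-type mice on a normal chow diet received 400000000 Akk by mouth daily for 7 weeks, starting at 8 weeks of age, and the control mice received PBS, the carrier. RNA came from intestinal epithelial cells, and each group had 3 libraries. The title of the series places the work in the jejunum and concerns lipid absorption, while the sample labels name the intestine without a segment. Strain and sex are not stated in the labels, nor whether 1 library equals 1 mouse, so the spread between libraries may be partly technical.

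A chylomicron is the particle in which enterocytes export dietary fat into the lymph. It is built around 1 molecule of ApoB, which in the intestine is a truncated form made from an edited Apob mRNA. ApoA-IV, encoded by Apoa4, is a surface protein made in large amounts by enterocytes during fat absorption, and ApoC-II and ApoC-III act in the circulation, the first as the cofactor that lipoprotein lipase requires and the second as an inhibitor of the clearance of the particle. Apoc2, Apoc3 and Apob are also strongly expressed in liver.

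The table holds genes that the authors had selected on these same 6 libraries. The largest of the p-values in the authors' deposited table was 0.0498 and the smallest fold change was 1.50 in either direction. A group difference in either direction was therefore a condition for a gene to appear in it. The 4 genes are among the 346 (25% of the table) listed as higher in Akk. Differences between the groups are given below as a description. The depth that the FPKM values (fragments normalised for transcript length and library depth) imply was 36953393 to 41981223 fragments per Akk library and 33679032 to 39239100 per PBS library. PBS replicate 2 differed most from the rest, and fold changes, ratios and ranges that rest on it are also given without it.

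The genes lie at 3 places in the genome (coordinates from GENCODE M21, GRCm38). Apoa4 (ENSMUSG00000032080, chromosome 9, 46240696 to 46243459, plus strand) and Apoc3 (ENSMUSG00000032081, chromosome 9, 46232933 to 46235636, minus strand) are neighbours that point away from each other, with 5060 bases between their starts. Apoa1 and Apoa5, which flank them in the same cluster, were not listed. Apoc2 (ENSMUSG00000002992, chromosome 7, 19671579 to 19677941, minus strand) lies 142 bases from Apoc4, which was not listed. Apob (ENSMUSG00000020609, chromosome 12, 7977648 to 8016835, plus strand) has no other annotated gene overlapping it. The annotated Gm44805 spans nearly all of Apoc2 and Apoc4 on the same strand, and Gm47528 and Gm10680 overlap Apoa4 on the opposite strand. How reads were counted, and whether by strand, is not given in the sources used here, so reads of these overlapping genes cannot be told apart from those of Apoc2 and Apoa4.

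The sequences around the annotated transcription starts are shown because the 4 genes had much the same order of libraries. RefSeq (GRCm38.p6) had windows for 3 of the 4 genes, each with 250 bases before and 50 bases after a start, written 5′ to 3′ on the strand of the gene. They are chr9:46240594-46240893 on the plus strand for Apoa4, chr7:19677892-19678191 on the minus strand for Apoc2 and chr12:7977427-7977726 on the plus strand for Apob. Capitals mark matches to 4 motifs that were searched on both strands.
Apoa4: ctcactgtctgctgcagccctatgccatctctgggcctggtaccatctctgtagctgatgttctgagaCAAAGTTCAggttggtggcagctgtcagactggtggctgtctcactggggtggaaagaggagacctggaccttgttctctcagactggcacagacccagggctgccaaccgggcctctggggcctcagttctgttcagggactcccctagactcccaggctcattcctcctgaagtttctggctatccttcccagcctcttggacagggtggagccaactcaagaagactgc
Apoc2: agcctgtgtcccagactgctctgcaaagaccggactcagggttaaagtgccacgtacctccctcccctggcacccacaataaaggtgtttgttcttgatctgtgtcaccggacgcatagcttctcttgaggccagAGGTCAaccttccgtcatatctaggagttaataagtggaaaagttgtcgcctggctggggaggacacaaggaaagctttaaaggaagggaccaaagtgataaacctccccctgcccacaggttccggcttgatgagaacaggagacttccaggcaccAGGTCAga
Apob: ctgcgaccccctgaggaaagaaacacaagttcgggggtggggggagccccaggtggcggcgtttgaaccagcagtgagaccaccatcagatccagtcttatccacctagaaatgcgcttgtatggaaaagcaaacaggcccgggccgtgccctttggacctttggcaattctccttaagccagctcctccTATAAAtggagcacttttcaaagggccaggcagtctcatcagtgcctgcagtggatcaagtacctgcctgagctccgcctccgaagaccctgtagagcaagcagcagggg
The motifs were TATAAA (the TATA box), CAAAGTNCA (a core of sites for HNF4, a nuclear receptor of intestine and liver), AGGTCA (the half-site of many nuclear receptors) and TGACGTCA (the cyclic AMP response element). No letters were shared between matches. Positions are counted from the RefSeq start of each window, which for Apoa4 and Apob lies 148 and 29 bases downstream of the GENCODE start printed above, and for Apoc2 coincides with it. The Apoa4 window held CAAAGTNCA 182 bases before the RefSeq start and 34 before the GENCODE start, a motif found in 1.41% of the 32851 RefSeq windows of this length. The Apoc2 window held AGGTCA 115 bases before the start and again past it (16.3% of all windows hold this motif at least 1 time), and the Apob window held TATAAA 60 bases before the RefSeq start and 31 before the GENCODE start (13.6% of windows). TGACGTCA (1.79% of windows) was in none of the 3. No motif was common to the 3 windows, and a match is a match of letters only.

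Apoa4 was the most abundant of the 4 transcripts and was number 5 of all listed genes by mean FPKM, after 4 mitochondrially encoded transcripts. Its level was 4527, 5057 and 3660 FPKM in Akk replicates 1 to 3, and 1811, 467 and 3101 FPKM in PBS replicates 1 to 3. The 2 groups did not overlap, but the lowest Akk library exceeded the highest PBS library by only 1.18-fold, and PBS replicate 2 was far below the rest. In reads, the gene took 0.821%, 0.918% and 0.664% of the implied depth in Akk, and 0.329%, 0.0847% and 0.563% in PBS. The mean level was 4415 ± 705 FPKM in Akk and 1793 ± 1317 FPKM in PBS (SD, n = 3), a ratio of 2.46, or 1.80 without PBS replicate 2.

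Apoc3, the inhibitor of clearance, followed the order of Apoa4 library by library. It had 821, 839.6 and 627 FPKM in Akk replicates 1 to 3 and 367, 99.3 and 532 FPKM in PBS replicates 1 to 3. The groups did not overlap, again by a factor of 1.18 between the nearest libraries. The mean was 763 ± 118 FPKM in Akk and 333 ± 219 FPKM in PBS (SD, n = 3), a ratio of 2.29, or 1.70 without PBS replicate 2.

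Apoc2, the lipase cofactor, had 895, 931 and 683 FPKM in Akk replicates 1 to 3 and 346, 122 and 656 FPKM in PBS replicates 1 to 3. Akk replicate 3 and PBS replicate 3 differed by only 1.04-fold, so that the separation of the groups rested on a small gap between these libraries. In raw reads the order of this pair was the opposite, with 16076 in Akk replicate 3 and 16386 in PBS replicate 3, before division by their depths. The mean was 837 ± 134 FPKM in Akk and 375 ± 268 FPKM in PBS (SD, n = 3), a ratio of 2.23, or 1.67 without PBS replicate 2.

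Apob, the scaffold of the particle, varied least. It had 305, 283 and 251 FPKM in Akk replicates 1 to 3 and 165, 91.6 and 229 FPKM in PBS replicates 1 to 3. The lowest Akk library was 1.10-fold above the highest PBS library. The mean was 279.8 ± 27.1 FPKM in Akk and 162 ± 68.6 FPKM in PBS (SD, n = 3), a ratio of 1.73, or 1.42 without PBS replicate 2. Because its transcript is long, Apob took 0.421% of the reads in Akk replicate 1, more than Apoc2 and Apoc3 together. Edited and unedited Apob mRNA are counted alike in such a table.

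**Figure D1:**
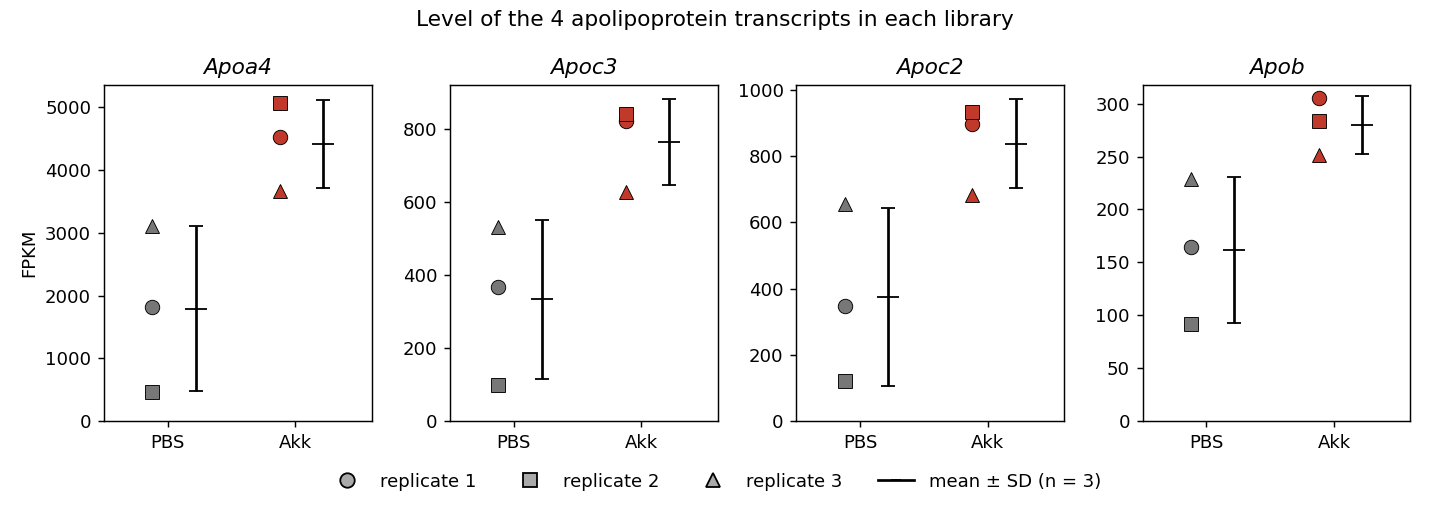
FPKM of Apoa4, Apoc3, Apoc2 and Apob in the 3 PBS and 3 Akk libraries, with 1 point per library (the shape gives the replicate number) and the mean ± SD beside them. PBS replicate 2 is the lowest library in every panel, from 467 FPKM for Apoa4 to 91.6 FPKM for Apob, and Akk replicate 3 is the lowest of the Akk libraries and lies close above PBS replicate 3.

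The 4 genes also shared an order of libraries within each group, which the choice of genes listed as higher did not set directly. In Akk, replicates 1 and 2 lay above replicate 3, and in PBS, replicate 3 lay above replicate 1 and replicate 1 above replicate 2. This order, with all Akk above all PBS libraries, was seen in 39 of the 346 genes listed as higher (11.3%) and in 2.81% of the whole table. Apoa4, Apoc3 and Apoc2 were highest in Akk replicate 2 and Apob in Akk replicate 1. Non-overlapping groups with Akk above were seen in 37.6% of the genes listed as higher and in 9.38% of the whole table, and PBS replicate 2 was the lowest library in 42.8% of the genes listed as higher and 10.8% of the table. Together the 4 transcripts took 1.34%, 1.41% and 1.08% of the reads in Akk replicates 1 to 3, against 0.596%, 0.223% and 0.943% in PBS replicates 1 to 3.

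Spread within a group was far larger in PBS than in Akk. The highest PBS library exceeded the lowest by 6.65-fold for Apoa4, 5.36-fold for Apoc3, 5.39-fold for Apoc2 and 2.50-fold for Apob, while in Akk the same range was 1.38-fold, 1.34-fold, 1.36-fold and 1.21-fold. Among the 149 genes listed as higher with a mean of at least 10 FPKM, the median range was 1.64-fold in PBS and 1.54-fold in Akk. Apoa4, Apoc2 and Apoc3 ranked 4, 7 and 9 of these 149 by their range in PBS, and Apob ranked 31. By their range in Akk they ranked 102 to 129. The range in PBS rested in large part on replicate 2, and PBS replicate 3 exceeded PBS replicate 1 by 1.71-fold for Apoa4, 1.45-fold for Apoc3, 1.90-fold for Apoc2 and 1.39-fold for Apob.

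The exchangeable apolipoproteins spanned a wider range over the 6 libraries than Apob did, with 10.8-fold for Apoa4, 8.46-fold for Apoc3 and 7.65-fold for Apoc2 between the lowest and the highest level, against 3.33-fold for Apob. PBS replicate 2 was the lowest library of each, and without it the ranges were 2.79-fold, 2.29-fold, 2.69-fold and 1.85-fold for Apoa4, Apoc3, Apoc2 and Apob. Per length, the order of levels was Apoa4 above Apoc2 and Apoc3, and these above Apob, in all 6 libraries. Apoc2 and Apoc3 lay close to each other, with Apoc2 higher in 5 libraries and Apoc3 higher in PBS replicate 1 (367 against 346 FPKM). The FPKM ratio of Apoa4 to Apob was 14.8, 17.8 and 14.6 in Akk replicates 1 to 3 and 10.98, 5.09 and 13.6 in PBS replicates 1 to 3. The groups did not overlap, and PBS replicate 2 was lowest. The mean log2 ratio was 3.97 ± 0.16 in Akk and 3.19 ± 0.74 in PBS (SD, n = 3), a difference of 0.78, or 0.36 without PBS replicate 2. An exact two-sided permutation test gave p = 0.1, the smallest value that 3 libraries against 3 can give, and 0.2 after Benjamini-Hochberg adjustment over the 4 ratios compared.

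The ratio of Apoc3 to Apob was 2.69, 2.96 and 2.50 in Akk replicates 1 to 3 and 2.22, 1.08 and 2.33 in PBS replicates 1 to 3. The groups did not overlap here either (log2 difference 0.61, or 0.25 without PBS replicate 2; exact permutation p = 0.1, adjusted 0.2). The ratio of Apoc2 to Apob was 2.94, 3.29 and 2.72 in Akk and 2.10, 1.33 and 2.87 in PBS, where PBS replicate 3 lay above Akk replicate 3 (log2 difference 0.57, or 0.28 without PBS replicate 2; exact permutation p = 0.2, adjusted 0.2). For the neighbours Apoa4 and Apoc3 the ratio was 5.51, 6.02 and 5.84 in Akk and 4.94, 4.70 and 5.83 in PBS, so that the range over all libraries was narrow and the groups overlapped (log2 difference 0.17, or 0.11 without PBS replicate 2; exact permutation p = 0.2, adjusted 0.2). None of the 4 ratios passed a threshold of 0.05, which this design cannot reach. Both genes of each ratio had been selected for a group difference on these same libraries, so the ratios and their p-values are a description only. How often other pairs of listed genes separate the groups was not tested.

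**Figure D2:**
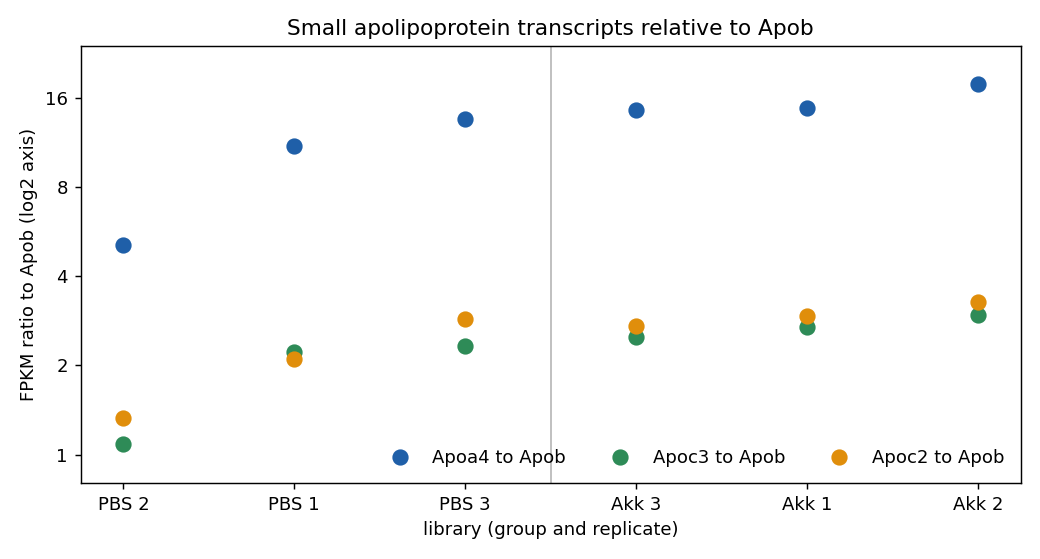
FPKM of Apoa4, Apoc3 and Apoc2 divided by the FPKM of Apob in each library, on a log2 axis, with PBS libraries left and Akk libraries right of the line. In PBS replicate 2 the ratios are 5.09, 1.08 and 1.33, below those of every other library; PBS replicate 3 lies close to Akk replicate 3.

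The FPKM values also carry a transcript length, since the count, the FPKM and the depth together imply it. For Apoa4 this length was 1814 to 1815 bases in the 6 libraries, and its single annotated transcript is 1815 bases long. For Apoc3 it was 530 to 533 bases, close to the 526 bases of a coding transcript and far from the 1014 bases of all its exons together, and for Apoc2 it was 631 to 637 bases, with an annotated transcript of 631. For Apob it was 13536 to 13792 bases, between its full-length annotated transcripts of 13369 and 13934 bases. The implied lengths thus varied by less than the levels did, and the ratio of counts gave the same directions as the ratio of FPKM for all 4 pairs.

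In PBS replicate 2, where the apolipoproteins were lowest, markers of intestinal crypts were highest. Of 29 markers of Paneth cells, crypt stem cells and proliferation, 23 were listed, all as lower in Akk, and each of the 23 was highest in PBS replicate 2. Their summed level was 9372 FPKM there, against 252 and 272 FPKM in PBS replicates 1 and 3 and 181 to 221 FPKM in Akk. The 4 apolipoproteins summed to 779 FPKM in PBS replicate 2, 2689 and 4518 FPKM in PBS replicates 1 and 3, and 5222 to 7112 FPKM in Akk. Most of the crypt sum came from Paneth cell markers, with 205 and 232 FPKM in PBS replicates 1 and 3. In the same libraries crypt stem cell markers summed to 13.3 and 14.1 FPKM, and proliferation markers to 32.8 and 25.9 FPKM. A lower share of villus enterocytes and less RNA of these genes per cell cannot be told apart in bulk RNA, and the part of the crypt markers in the apolipoprotein difference was not tested.

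**Figure D3:**
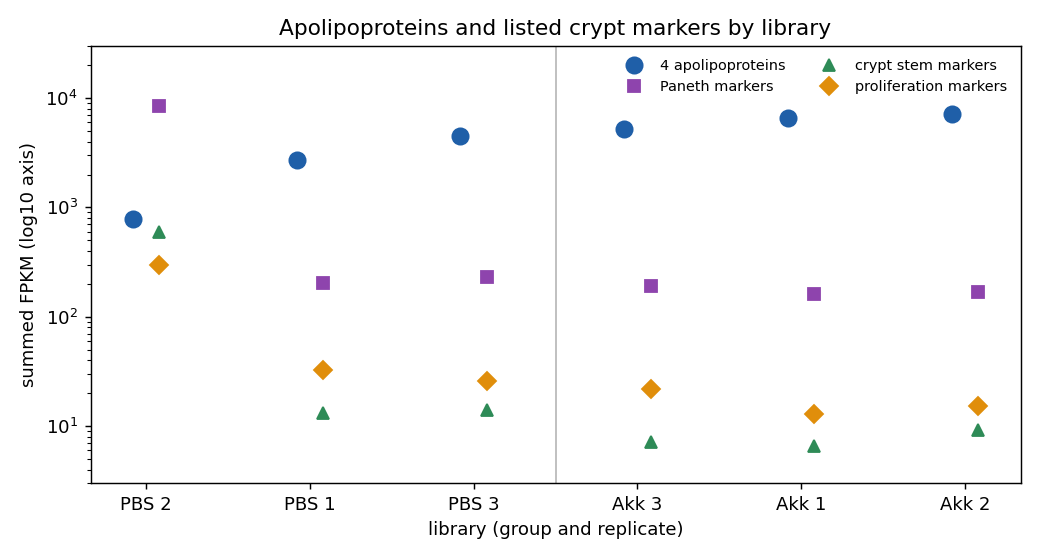
Summed FPKM of the 4 apolipoproteins and of the listed Paneth cell, crypt stem cell and proliferation markers in each library, on a log10 axis, with PBS libraries left and Akk libraries right of the line. PBS replicate 2 has the lowest apolipoprotein sum (779 FPKM) and the highest sum of each marker group (8481 FPKM for Paneth cell markers).

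None of 10 enterocyte markers, 5 liver markers, 8 immune markers and 5 stromal markers was listed, so the labelled cell type could not be checked against its markers and these sources of RNA could not be measured here. No tuft cell marker of 3 was listed, 1 of 7 goblet cell and 3 of 6 enteroendocrine markers were, and of 8 pancreatic markers 1 was listed: colipase, with 66.1 FPKM in PBS replicate 2 and 1.24 to 2.45 FPKM in the other libraries. The proximal genes S100g, Slc40a1 and Cybrd1 summed to 116 FPKM in Akk replicate 3, the Akk library with the lowest apolipoprotein levels, and to 5.22 to 17.95 FPKM in the other libraries. Whether position along the intestine bears on the apolipoprotein levels was not tested.

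In the fit over the whole table, edgeR's quasi-likelihood test with Benjamini-Hochberg adjustment called 0 of the 1386 genes (0% of the table; 791, or 57.1%, had an unadjusted p under 0.05) and none of the 4. Apoa4 had a log2 fold change (Akk over PBS) of 1.30 (SE 0.61, adjusted p = 0.0948), Apoc3 1.20 (SE 0.60, adjusted p = 0.104), Apoc2 1.15 (SE 0.60, adjusted p = 0.112) and Apob 0.79 (SE 0.41, adjusted p = 0.112). The median of the 4 was 1.18, beside 0.74 over the genes listed as higher and -1.85 over the table. Without PBS replicate 2 these medians were 0.75, 0.70 and -0.66, so that the 4 lay close to the other genes listed as higher. In the authors' deposited table the log2 fold changes were 1.06, 1.02, 1.004 and 0.88 in the same order, with p-values of 0.0291, 0.0316, 0.0334 and 0.0265 whose adjustment is not stated.

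The calls depended on the PBS libraries and on the tool. Without PBS replicate 2 the log2 fold changes were 0.85 (SE 0.34), 0.76 (SE 0.25), 0.73 (SE 0.32) and 0.51 (SE 0.26) for Apoa4, Apoc3, Apoc2 and Apob, and none of the 4 was called by edgeR, where 24 genes of the table (1.73%) were called as higher. Without PBS replicate 3 they were 1.95, 1.71, 1.84 and 1.12, and Apoa4 (edgeR adjusted p = 0.0395) and Apoc2 (adjusted p = 0.0405) were called, among 27 genes called as higher (1.95% of the table). DESeq2 called Apoa4 (adjusted p = 0.0161), Apoc3 (0.0479) and Apob (0.045) and not Apoc2 (0.0524), among 74 genes called as higher (5.34% of the table). These shares are of all 1386 genes, of which only 346 were listed as higher. All of them had been selected for a group difference on these same libraries. An adjusted p over them, here and in the fit above, therefore does not bound the share of false calls. Calls of the 4 members are a description only. In either direction, 269 genes were called without PBS replicate 2, 732 without PBS replicate 3 and 786 with DESeq2. DESeq2 gave no adjusted p for 262 genes, which its share still counts, so its calls and those of edgeR rest on unlike sets. Over the 17 alternatives the adjusted p ranged from 0.0161 to 0.304 for Apoa4, 0.0479 to 0.2503 for Apoc3, 0.0405 to 0.257 for Apoc2 and 0.045 to 0.289 for Apob. TMM and RLE factors computed from the listed genes gave the 4 a median of 1.97 and 1.92, beside 1.81 and 1.78 over the genes listed as higher and -0.17 and -0.15 over the table.

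**Figure D4:**
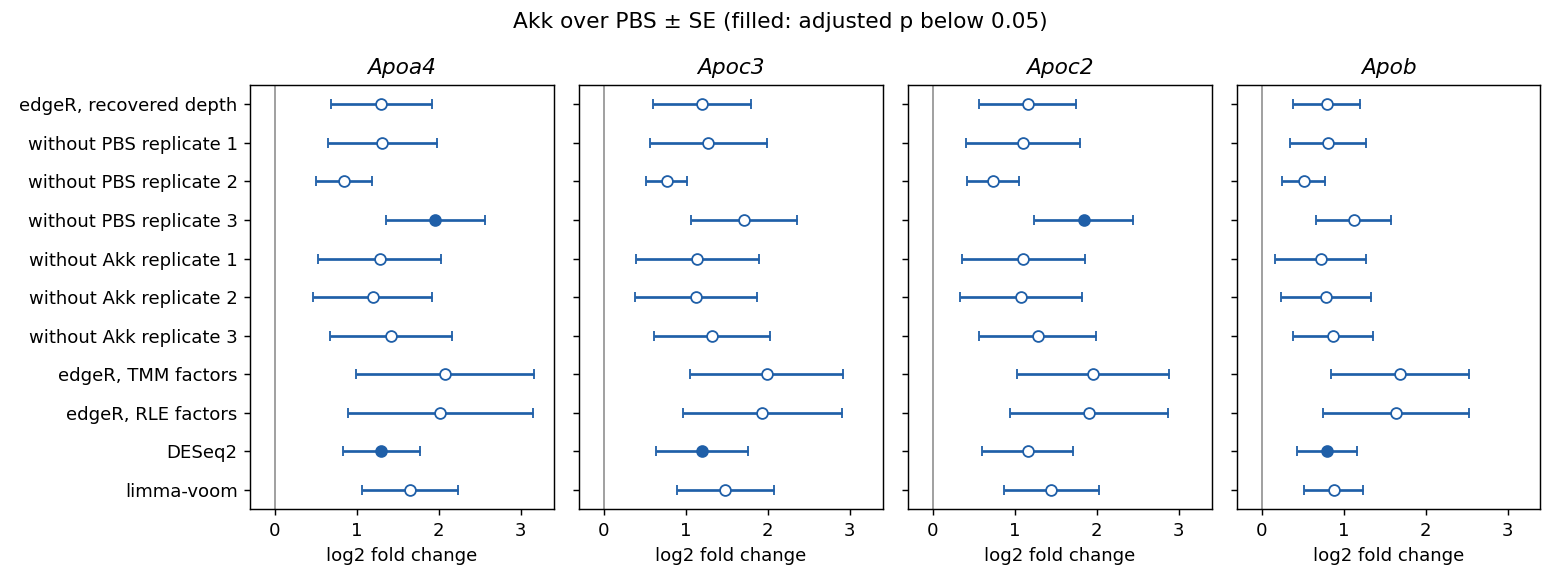
Log2 fold change of Akk over PBS ± SE for each of the 4 genes, with all libraries, without each library in turn, with factors computed from the listed genes, and with DESeq2 and limma-voom; filled points have an adjusted p below 0.05. All values shown are above 0, from 0.51 for Apob without PBS replicate 2 to 2.07 for Apoa4 with TMM factors. Since the groups did not overlap, leaving out a library could not reverse the sign.

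Other genes of the pathway were mostly not listed. The lists held 85 genes of chylomicron apolipoproteins, Apob mRNA editing, particle assembly, fatty acid uptake, glyceride synthesis, sterol uptake, lipolysis and apolipoprotein transcription. Of these, 8 were listed, 5 as higher and 3 as lower. The 4 members, present by choice, are among the 5, and 25% of the table was listed as higher. The count is therefore not read as a result about the pathway. None of the 8 passed edgeR's test with all libraries or without PBS replicate 2. The fit without PBS replicate 2 called 19.4% of the table (17.7% as lower and 1.73% as higher). Of the 10 apolipoproteins these 4 were listed, and Apoa1, Apoa5, Apoc1, Apoc4, Apoe and Apoa2 were not. No member was listed among 16 genes of assembly and export, which include Mttp, the lipid transfer protein that loads ApoB, nor among 9 genes of fatty acid uptake and 7 of sterol uptake. For a gene outside the table it is unknown whether it was unchanged, below the thresholds or unmeasured.

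Angptl4, a secreted inhibitor of lipoprotein lipase, was the other gene listed as higher. It had 6.39, 7.75 and 4.12 FPKM in Akk replicates 1 to 3 and 3.64, 2.88 and 2.16 FPKM in PBS replicates 1 to 3. Its log2 fold change was 1.10 (SE 0.61) and 1.12 (SE 0.38) without PBS replicate 2, and its lowest library was PBS replicate 3, unlike the apolipoproteins. The 3 genes listed as lower were Ppara, a fatty acid-sensing nuclear receptor, Nr2f2, an orphan nuclear receptor, and Lpin1, a phosphatidate phosphatase. Ppara had 2.41, 1.28 and 2.14 FPKM in Akk and 3.84, 7.45 and 3.79 FPKM in PBS. Nr2f2 and Lpin1 stayed under 5 FPKM in all 6 libraries. Ppara, Nr2f2 and Lpin1 were highest in PBS replicate 2, where the apolipoproteins were lowest. Their listing as lower favoured this.

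The genes most like the 4 in pattern were found by the Pearson correlation of log2(FPKM + 1) over the 6 libraries, among the 426 other genes with a mean of at least 10 FPKM. Because the libraries share a group difference and PBS replicate 2, these correlations are a ranking only. The 5 nearest genes of each member came from a set of 7, with r from 0.985 to 0.998, or 0.916 to 0.991 for the same pairs without PBS replicate 2. Cgref1 and Car2 were among the 5 of all 4 members, and Eps8, Pdzk1 and Pcx of 3 each. Cgref1 had 239, 209 and 187 FPKM in Akk replicates 1 to 3 and 118, 58.4 and 181 FPKM in PBS replicates 1 to 3. Car2, a cytosolic carbonic anhydrase, had 14.6, 16.8 and 13.5 FPKM in Akk and 6.82, 2.67 and 10.2 FPKM in PBS. Pdzk1, a scaffold of brush border transporters, had 143, 134 and 99.1 FPKM in Akk and 53.3, 20.8 and 105.5 FPKM in PBS, where PBS replicate 3 lay above Akk replicate 3. Eps8, an actin-binding protein of microvilli, spanned a narrower range, from 32.0 FPKM in PBS replicate 2 to 74.5 FPKM in Akk replicate 2. All 7 genes, with Pcx, Ephx2 and Fbln1 completing the set, were lowest in PBS replicate 2. Their choice by likeness to the members favoured this, and it held for 42.8% of the genes listed as higher.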

How the data were processed

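Per the labels' protocols, RNA of intestinal epithelial cells was extracted with Trizol and made into Illumina mRNA libraries. The build was mm10 per the submitters' processing notes; which aligner, counter, gene models and strand setting were used is not given in the sources used here. Per the file headers, the authors deposited read counts and FPKM per library, together with their own log2 fold change and p-value per gene; the table holds only genes past a threshold. The members and gene lists were chosen with earlier results of these data known, and the promoter motifs after the sequences were seen.

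Depth was recovered as the median of count / (FPKM × length) over 51 other genes with a single annotated transcript (GENCODE M21) and at least 200 counts in each library. The exon union of 544 genes, an alternative chosen after seeing the data, gave 23192289 to 29150964 fragments. The principal model for the counts was the quasi-likelihood test of edgeR 4.0.16 in R 4.3.3 after filterByExpr, with the depth from single-transcript genes as library size and Benjamini-Hochberg adjustment over 1386 genes at 0.05; the SE is the log2 fold change divided by the root of F. Ratios were tested with an exact permutation test (scipy 1.17.1). Alternatives were TMM, RLE and upper-quartile factors, other filters, a replicate block, DESeq2 1.42.0, limma 3.58.1 (voom, and log2 of FPKM plus 1 or 0.1), a threshold of 0.01 and each library left out in turn. Fits were tested on simulated data with the same relative spread for all genes and no outlying library. That test does not show how the fits behave with a library such as PBS replicate 2. Named genes were the members, listed genes of the pathway lists, chromosomal neighbours and the 5 most similar genes of each member; the proximal genes and the genes of the authors' pathway annotation were added after their values were seen.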

Additional observations from a re-analysis of the deposited data

How the results depend on the processing

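All 4 genes kept a log2 fold change above 0 under each of the 17 alternatives, and all 4 ratios kept their direction under the alternatives run. For the genes this is no independent support, since they were listed as higher on these same libraries. Every Akk library lay above every PBS library, so leaving out a library could not reverse the sign. The count of 0 genes called over the table became 6 with the replicate block, 786 with DESeq2, 2 with limma-voom and 1 with limma on log2(FPKM + 0.1), and 0 to 734 when libraries were left out in turn, with 734, 269 and 732 on leaving out PBS replicates 1 to 3. The cause of these changes was not tested. DESeq2 called Apoa4 at 1.30, Apoc3 at 1.20 and Apob at 0.79. Leaving out libraries in turn gave 0.85 to 1.95 for Apoa4, 0.76 to 1.71 for Apoc3, 0.73 to 1.84 for Apoc2 and 0.51 to 1.12 for Apob. With the replicate block the log2 fold changes were 1.63, 1.47, 1.45 and 0.88 for Apoa4, Apoc3, Apoc2 and Apob, and none of the 4 was called. The numbers were not taken as pairs, since the labels do not say that they pair mice. Same-numbered libraries correlated at 0.24, -0.09 and -0.31 in their deviations from the group means. With 3 libraries per group these values cannot decide the pairing. No count filter changed a call, since few or no genes were removed. Read counts of the 4 genes ran from 1777 to 361459 per library, and the PBS libraries of Apoa4 spanned 6.65-fold.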

Other observations

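The authors' annotation places 10 listed genes in cholesterol metabolism, of which Akk was higher in 6 and lower in 4, and the 4 apolipoproteins are among the 6. Of other annotated pathways that hold a member, fat digestion and absorption had 2 genes higher and 4 lower, PPAR signaling 4 higher and 7 lower, and vitamin digestion and absorption 4 higher and 1 lower. The higher genes included 2, 1 and 2 members in the same order. Members were in these counts by choice, and 25% of the table was listed as higher. In cholesterol metabolism the others listed as higher were Angptl4 and Npc1, the lysosomal cholesterol exporter. Npc1 had 7.11, 6.14 and 7.65 FPKM in Akk replicates 1 to 3 and 4.98, 5.13 and 6.21 FPKM in PBS replicates 1 to 3. Its groups overlapped, with Akk replicate 2 below PBS replicate 3. The ratio of its mean FPKM was 1.28, and its edgeR log2 fold change was only 0.36 (SE 0.47). Among those listed as lower, Soat1, a cholesterol-esterifying enzyme, had 0.633, 0.481 and 0.630 FPKM in Akk and 0.919, 4.40 and 0.784 FPKM in PBS, and Tspo, a mitochondrial outer membrane protein, had 13.97, 13.4 and 15.7 FPKM in Akk and 25.3, 41.7 and 22.3 FPKM in PBS. Each of the 4 genes listed as lower was highest in PBS replicate 2, which their listing as lower favoured. Of the 10, none passed edgeR's test with all libraries, and Tspo did without PBS replicate 2 (log2 fold change -0.73, SE 0.19, adjusted p = 0.0463, against 0.122 with all libraries). That fit called 19.4% of the table, 17.7% as lower and 1.73% as higher. A count of 1 in 10 is therefore not read as a result about these genes.

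Apol7a and Apol10a, members of the apolipoprotein L family, were also listed as higher. Apol7a had 104.2, 104.3 and 57.1 FPKM in Akk replicates 1 to 3 and 34.1, 19.7 and 61.2 FPKM in PBS replicates 1 to 3, with log2 fold changes of 1.21 (SE 0.54) and, without PBS replicate 2, 0.89 (SE 0.37). Apol10a had 205, 310.03 and 85.6 FPKM in Akk and 82.6, 57.2 and 134 FPKM in PBS. For both, Akk replicate 3 lay below PBS replicate 3, so the groups overlapped, unlike those of the 4 chylomicron apolipoproteins.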
